A study of Mus musculus with 4 samples.

Results

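Genes of the phagocyte NADPH oxidase and of oxidant defence were followed in brain immune cells after cardiac arrest (CA). They were 9 genes chosen by symbol out of the 32285 genes counted: Cybb, Cyba, Ncf1 and Ncf4 of the oxidase, the nitric oxide synthase gene Nos2, and Sod1, Sod2, Prdx1 and Txn1. Wild-type C57Bl/6 mice were arrested with potassium chloride and resuscitated, or had sham surgery without arrest. On day 3 perfused brains were broken up mechanically and passed over Percoll, CD45+ cells were taken by flow sorting, and transcript 3' ends of single cells were sequenced. The groups were aged CA, young CA, aged sham and young sham, with aged mice of 18 to 20 months and young mice of 3 to 6 months. Each group was 1 library pooled from 3 mice that cannot be told apart. All comparisons below are therefore between libraries, without a replicate check and without p-values, and the intervals given cover counting error only. Those of levels and ratios take each UMI as a separate draw. They are too narrow where the UMIs of a gene sit in few cells, as for Cybb.

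The phagocyte oxidase moves electrons from NADPH onto oxygen and releases superoxide, which serves the killing of microbes and also signals within the cell. Its membrane core is a flavocytochrome of the Cybb and Cyba products, and cytosolic subunits, among them those encoded by Ncf1 and Ncf4, join it on activation. Superoxide dismutases turn superoxide into hydrogen peroxide, peroxiredoxins reduce the peroxide, and thioredoxin reduces the peroxiredoxins in turn. Microglia, the resident macrophages of the brain, carry this oxidase, as do infiltrating monocytes and neutrophils.

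The promoters of the 4 members that reached 2-fold in a CA comparison are shown so that their upstream letters can be compared. Each window holds 250 bases before and 50 bases after the RefSeq start on GRCm38.p6, printed 5' to 3' on the gene's own strand. RefSeq promoters were found for 7 of the 9 members, and Ncf4 and Nos2 were not among them. Capitals mark matches to any of 5 motifs, searched on both strands: the interferon-stimulated response element core (ISRE; GAAA, any 2 bases, GAAA), the GAS motif TTCNNNGAA, the kappa B motif (GGG, any 2 bases, TTTCC), the antioxidant response element core TGACNNNGC and the PU.1 core GAGGAA.
Cybb, chrX:9469275-9469574, minus strand: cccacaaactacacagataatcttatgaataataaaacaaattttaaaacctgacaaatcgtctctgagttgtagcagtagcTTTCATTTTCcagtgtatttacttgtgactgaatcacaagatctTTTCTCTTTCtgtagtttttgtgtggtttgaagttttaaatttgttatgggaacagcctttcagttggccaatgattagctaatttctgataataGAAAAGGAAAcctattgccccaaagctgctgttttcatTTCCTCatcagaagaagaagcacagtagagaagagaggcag
Sod2, chr17:13007589-13007888, plus strand: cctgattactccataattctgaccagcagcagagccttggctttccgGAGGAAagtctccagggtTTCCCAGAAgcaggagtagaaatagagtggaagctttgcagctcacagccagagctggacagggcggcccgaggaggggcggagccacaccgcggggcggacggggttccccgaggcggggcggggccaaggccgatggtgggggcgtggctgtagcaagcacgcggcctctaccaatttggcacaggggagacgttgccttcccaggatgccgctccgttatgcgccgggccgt
Prdx1, chr4:116685349-116685648, plus strand: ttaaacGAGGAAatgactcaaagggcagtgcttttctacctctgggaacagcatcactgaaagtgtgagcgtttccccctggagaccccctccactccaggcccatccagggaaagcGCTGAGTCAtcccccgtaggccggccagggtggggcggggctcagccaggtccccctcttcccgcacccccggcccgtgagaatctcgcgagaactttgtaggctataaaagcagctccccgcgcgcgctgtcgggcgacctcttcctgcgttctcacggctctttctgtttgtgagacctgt
Txn1, chr4:57956362-57956661, minus strand: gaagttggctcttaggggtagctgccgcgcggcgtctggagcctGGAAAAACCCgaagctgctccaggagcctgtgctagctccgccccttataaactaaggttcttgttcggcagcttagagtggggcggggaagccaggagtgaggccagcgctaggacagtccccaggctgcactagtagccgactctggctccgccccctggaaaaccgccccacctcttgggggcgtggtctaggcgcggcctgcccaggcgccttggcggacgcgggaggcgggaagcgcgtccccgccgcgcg
The Cybb window held 3 matches to the ISRE core, at positions 83, 127 and 222 of its 300 bases counted from the 5' end, and 1 match to GAGGAA at position 260. A match to the ISRE core was present in 3.44% of 32851 mouse promoters of this length, and 3 or more matches were present in 5 of them (0.0152%). The Cybb window had 35.3% GC, against a median of 52.7% over the promoters searched. The shares were not matched for base composition, so they do not show how rare such matches are among windows like that of Cybb. The Sod2 window held GAGGAA at position 48, which 28.3% of promoters hold, and TTCNNNGAA at position 66, which 8.30% hold. The Prdx1 window held GAGGAA at position 7 and TGACNNNGC at position 118, the letters of which 12.4% of promoters hold. The Txn1 window held the kappa B motif at position 45, present in 1.63% of promoters. Of the other windows, Ncf1 held the ISRE core at position 169 overlapping TTCNNNGAA at position 163, Sod1 held TGACNNNGC at position 195, and Cyba held no match. A match is a description of the letters and shows no binding.

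The libraries held 70924569 UMIs (aged CA), 115892682 UMIs (young CA), 44277472 UMIs (aged sham) and 72648041 UMIs (young sham). A UMI is a molecular tag counted once per captured transcript. Cells were gated by marker lists, and a class is called "-like" because only transcripts were seen. Microglia-like cells numbered 4437 in aged CA and 8096 in young CA, against 4789 in aged sham and 7469 in young sham, and all 12 microglial markers had UMIs in each library. Their summed marker level was 9741 and 15182 CPM in aged CA and young CA, and 20757 and 24349 CPM in aged sham and young sham. CPM is the count scaled to 1000000 UMIs of the same class and library. The clusters with most of these cells differed, being clusters 1 and 0 in aged CA, 5 and 3 in young CA, and 14 and 13 in both sham libraries. The aged sham library stood apart: its microglia-like cells had a median of 3757 UMIs against 5584 to 10203 elsewhere, 19.2% of its kept cells passed no gate against 4.17% to 10.5%, and haemoglobin reached 946 CPM against at most 13.8. It was the one aged sham library, so no aged comparison of CA with sham can be made without it. Any 2 libraries shared between 15 and 32 barcodes. Neuron-like cells, which a CD45 gate should leave out, made up 1.27% to 6.62% of kept cells.

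Cybb, the catalytic subunit of the oxidase, was several-fold higher after CA at both ages. In microglia-like cells it stood at 53.8 CPM in aged CA and 43.3 CPM in young CA, against 12 CPM in aged sham and 3.53 CPM in young sham. Both CA libraries lay above both sham libraries. The ratio of aged CA to aged sham was 4.50 (95% interval 4.02 to 5.04), and that of young CA to young sham was 12.3 (10.6 to 14.3). The larger ratio in young mice went with a lower sham level, and the CA levels of aged and young differed 1.24-fold (1.18 to 1.31). The aged ratio divided by the young ratio was 0.366 (0.305 to 0.439).

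Cybb transcripts were concentrated in few microglia-like cells. They were found in 527 of 4437 cells in aged CA and 1317 of 8096 in young CA, against 148 of 4789 in aged sham and 84 of 7469 in young sham. The highest 1% of cells held 40.0% of the Cybb UMIs in aged CA and 25.8% in young CA, against 68.0% in aged sham and 95.4% in young sham. For Cyba the same share was 5.66% to 6.71% in every library. Ncf4 in aged CA, with 2565 UMIs against 2559 of Cybb, had 9.94%. In young sham the highest 1% was 75 cells and only 84 cells had a Cybb UMI. The share there was thus bound to be high and was not read as concentration. After each cell was thinned to 2000 UMIs, leaving out 153, 475, 1409 and 731 shallower cells of aged CA, young CA, aged sham and young sham, 5.58% of cells had a Cybb UMI in aged CA and 6.51% in young CA, against 1.48% in aged sham and 0.430% in young sham. The unthinned shares were 11.9%, 16.3%, 3.09% and 1.12% in the same 4 libraries. In T-like cells, which should lack Cybb, the thinned counts were 0 of 111 cells in aged CA and 2 of 27 in young CA, against 3 of 152 in aged sham and 1 of 37 in young sham. Before thinning, T-like cells had a median of 8410 to 10270 UMIs by library and microglia-like cells of 3757 to 10203 UMIs. The T-like share was at most 3.27% (upper 95% limit) in aged CA and 7.41% (95% interval 0.910 to 24.3) in young CA, against 1.97% (0.409 to 5.66) in aged sham and 2.70% (0.0684 to 14.2) in young sham. In young CA and both sham libraries it was no lower than the microglia-like share, on few T-like cells, so those shares were not read as expression on their own. Neuron-like cells had a Cybb UMI in 3 of 150 cells of aged CA and 0 of 87 of young CA, against 3 of 245 of aged sham and 0 of 106 of young sham. By level, neuron-like cells had 0.109 (0.0726 to 0.159) of the microglia-like CPM of Cybb in aged CA and 0.0102 (0.000257 to 0.0566) in young CA, against 0.160 (0.0686 to 0.319) in aged sham and 0 UMIs (upper limit 0.256) in young sham. T-like cells had 0.0541 (0.0111 to 0.158) of it in aged CA and 0.278 (0.0574 to 0.814) in young CA, against 2.07 (1.42 to 2.92) in aged sham and 9.24 (5.18 to 15.4) in young sham. The sham values of T-like cells rest on 36 UMIs from 4 cells in aged sham and 16 UMIs from 4 cells in young sham. The microglia-like level was thus above the neuron-like level in each library and above the T-like level in the CA libraries.

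Monocyte transcripts moved with Cybb in young mice and the other way in aged mice. All 10 markers of the monocyte list had UMIs in microglia-like cells of each library, with a summed level of 27.1 CPM in aged CA and 63.7 CPM in young CA, against 33.0 CPM in aged sham and 17.5 CPM in young sham. In cells with no monocyte marker Cybb stood at 32.4 CPM in aged CA and 30.4 CPM in young CA, against 8.17 CPM in aged sham and 2.57 CPM in young sham, and the ratios were 3.96 and 11.8 for aged and young. In cells that were also in a cluster named microglia the ratios were 6.80 for aged and 15.8 for young. The border-associated macrophage list summed to 147 CPM in aged CA and 291 CPM in young CA, against 207 CPM in aged sham and 277 CPM in young sham. The neutrophil list of 12 markers summed to 180 CPM in aged CA and 408 CPM in young CA, against 581 CPM in aged sham and 532 CPM in young sham, with Ly6g at 0 in aged CA and Trem1 at 0 in both sham libraries. The part of these lists in the Cybb values, the monocyte list included, was not tested. Whether a cell shows no monocyte marker also depends on its depth, which was not matched between libraries in that subset.

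Cyba encodes the partner of Cybb in the membrane and was seen in most microglia-like cells. It stood at 1034 CPM in aged CA and 966 CPM in young CA, against 685 CPM in aged sham and 562 CPM in young sham. Both CA values were above both sham values, with a ratio of 1.51 (1.49 to 1.53) in aged and 1.72 (1.70 to 1.74) in young. Ncf1, the organising cytosolic subunit, stood at 298 CPM in aged CA and 339 CPM in young CA, against 236 CPM in aged sham and 268 CPM in young sham. Its ratios were close together, 1.26 (1.22 to 1.3) in aged and 1.27 (1.24 to 1.29) in young. Ncf4, a cytosolic subunit that binds a membrane phosphoinositide, had levels of 54.0 CPM in aged CA and 57.6 CPM in young CA, against 58.8 CPM in aged sham and 48.9 CPM in young sham. These overlapped between CA and sham, the aged ratio being 0.918 (0.863 to 0.976) and the young ratio 1.18 (1.12 to 1.24). The 4 oxidase members summed to 1440 CPM in aged CA and 1406 CPM in young CA, against 992 CPM in aged sham and 883 CPM in young sham, and Cyba made up most of each sum.

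**Figure D1:**
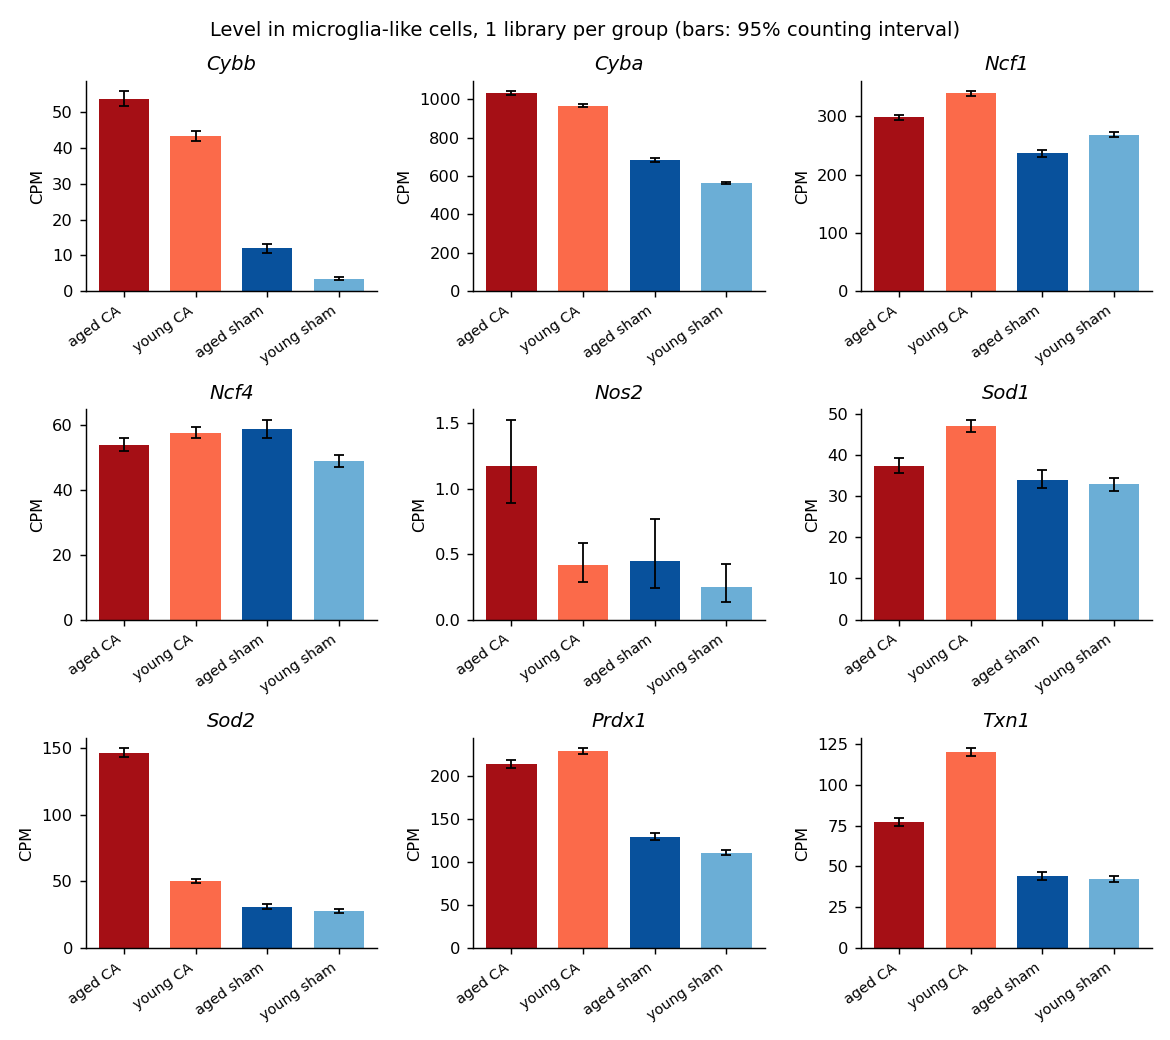
Level of each of the 9 genes in microglia-like cells (y axis, CPM from 0) in the 4 libraries (x axis), as bars with 95% counting intervals. Cybb stood at 53.8 and 43.3 CPM in aged CA and young CA against 12 and 3.53 CPM in aged sham and young sham, and Sod2 at 146 CPM in aged CA against 28.0 to 50.3 CPM in the other libraries.

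Nos2, the inducible nitric oxide synthase, was near the limit of detection. It had 56 UMIs in 55 cells in aged CA and 34 UMIs in 34 cells in young CA, against 13 UMIs in 13 cells in aged sham and 14 UMIs in 13 cells in young sham. These are levels of 1.18 and 0.419 CPM in aged CA and young CA, and of 0.449 and 0.252 CPM in aged sham and young sham. The ratio of aged CA to aged sham was 2.63 (1.42 to 5.23), and that of young CA to young sham was 1.66 (0.870 to 3.36), an interval that holds 1. Nos2 was too low to count as measured in any comparison of microglia-like cells, which required a mean of 10 CPM and 20 UMIs.

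Among the defence genes, Sod2, the mitochondrial superoxide dismutase, was highest in aged CA. Its level was 146 CPM in aged CA and 50.3 CPM in young CA, against 31.0 CPM in aged sham and 28.0 CPM in young sham. Aged CA stood clear of the other 3 libraries. The ratio of aged CA to aged sham was 4.72 (4.40 to 5.07), that of young CA to young sham was 1.80 (1.70 to 1.91), and the first divided by the second was 2.62 (2.40 to 2.87). At 2000 UMIs per cell, a Sod2 UMI was seen in 15.6% of cells in aged CA and 8.28% in young CA, against 5.80% in aged sham and 4.65% in young sham, where the unthinned shares were 46.2%, 31.3%, 14.8% and 15.9%. Another measure had the same order: the median mitochondrial share of UMIs was 3.75% in aged CA and 2.59% in young CA, against 1.98% in aged sham and 1.67% in young sham. A list of dissociation-response genes had another order, with 1379 CPM in aged CA and 907 CPM in young CA, against 1517 CPM in aged sham and 830 CPM in young sham. Their part in the Sod2 values was not tested. Sod1, the cytosolic dismutase, had 37.4 CPM in aged CA and 47.1 CPM in young CA, against 34.0 CPM in aged sham and 32.8 CPM in young sham. Its ratio was 1.10 (1.02 to 1.19) in aged and 1.43 (1.36 to 1.52) in young.

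Txn1, thioredoxin, was highest in young CA. It stood at 77.1 CPM in aged CA and 120 CPM in young CA, against 44.0 CPM in aged sham and 42.1 CPM in young sham. The ratio was 1.75 (1.64 to 1.87) in aged and 2.85 (2.73 to 2.98) in young, and the aged ratio divided by the young one was 0.614 (0.568 to 0.664). Prdx1, a cytosolic peroxiredoxin, had 213 CPM in aged CA and 229 CPM in young CA, against 129 CPM in aged sham and 111 CPM in young sham, with ratios of 1.66 (1.60 to 1.72) in aged and 2.07 (2.01 to 2.13) in young. Sod2 and Txn1 thus had their highest level in different CA libraries. After thinning a Txn1 UMI was found in 10.4% of cells in aged CA and 15.4% in young CA, against 7.43% in aged sham and 6.56% in young sham. A Prdx1 UMI was found in 28.7% and 28.4% of aged CA and young CA cells, against 19.7% and 16.1% of aged sham and young sham cells. The unthinned shares were 41.9%, 42.6%, 18.9% and 21.4% for Txn1 and 65.9%, 61.4%, 38.6% and 40.2% for Prdx1 in aged CA, young CA, aged sham and young sham. The 4 defence members summed to 474 CPM in aged CA and 446 CPM in young CA, against 238 CPM in aged sham and 214 CPM in young sham.

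Of 8 members measured in aged CA against aged sham, 2 were at 2-fold or more (Cybb and Sod2) and none was at 0.5 or less, where 6.19% of the 9209 measured genes were at 2-fold or more and 7.67% at 0.5 or less. In young CA against young sham 3 of 8 were at 2-fold or more (Cybb, Prdx1 and Txn1), where 5.40% of 9137 genes were, and none was at 0.5 or less, where 2.40% of genes were. The median log2 ratio of the members was 0.66 in aged and 0.81 in young, beside 0.04 and -0.06 over all measured genes. Prdx1 lay just past 2-fold, and in young cells with no monocyte marker its ratio was 1.82. The members were chosen with earlier results of these data known, so their counts beside those of all genes are a description.

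Between the ages, the measured members of the sham libraries lay within 0.882-fold and 1.22-fold of each other, and in the CA libraries Sod2 stood out. In aged sham against young sham 0 of 7 measured members were at 2-fold or more, where 1.72% of 9167 genes were, and 0 of 7 were at 0.5 or less, where 0.153% were. Cyba was at a ratio of 1.22 (1.20 to 1.24), Ncf4 at 1.20 (1.13 to 1.28) and Prdx1 at 1.17 (1.12 to 1.21). Ncf1 was the one measured member lower in aged sham, at 0.882 (0.857 to 0.908). Cybb had a ratio of 3.40 (2.84 to 4.07) there, but its mean level was under 10 CPM, so it did not count as measured. In aged CA against young CA 1 of 8 members was at 2-fold or more, where 1.86% of 9070 genes were, and 0 of 8 at 0.5 or less, where 2.72% were. The 1 member was Sod2, at 2.91 (2.80 to 3.03). Txn1 was lower in aged CA, at 0.642 (0.617 to 0.666), as were Sod1 at 0.794 (0.751 to 0.841) and Ncf1 at 0.878 (0.861 to 0.896).

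Where in the microglia-like population these transcripts lay was described by 4 states, each defined by at least 3 of its markers in a cell thinned to 2000 UMIs. A state is a range of a marker count and not a cell type, and no member is in a state list. A cell could meet the definition of several states. The interferon state, marked by genes such as Ifit1 and Isg15, held 699 cells (16.3%) in aged CA and 961 (12.6%) in young CA, against 41 (1.21%) in aged sham and 21 (0.312%) in young sham. The state marked by Ccl3, Ccl4, Tnf and Il1b held 578 cells (13.5%) in aged CA and 105 (1.38%) in young CA, against 57 (1.69%) in aged sham and 16 (0.237%) in young sham. The state marked by Spp1 and Lpl held 25 and 162 cells in aged CA and young CA, and cycling cells numbered 8 and 261. Cells with 2 or 3 markers, near the limit, numbered 605 in aged CA and 1693 in young CA for the interferon state and 1138 in aged CA and 488 in young CA for the Ccl3 and Ccl4 state.

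Cybb was higher in interferon-state cells than in the other microglia-like cells of each library. It had 184 CPM in the state and 24.0 CPM outside it in aged CA, and 89.9 and 35.6 CPM in young CA. The sham libraries showed the same order in far fewer cells, with 170 CPM in the state and 9.10 CPM outside it in aged sham, and 82.1 and 3.02 CPM in young sham. The ratio of state to other cells was 7.68 (7.08 to 8.33) in aged CA and 2.52 (2.34 to 2.71) in young CA. It was 18.7 (13.8 to 25.0) among the aged sham cells and 27.2 (16 to 43.9) among the young sham cells. Between 1.06% and 8.43% of measured genes were at 2-fold or more in this state across the 4 libraries. Its cells were deeper, with a median of 12379 UMIs against 10228 in aged CA and of 10715 against 9229 in young CA. In the Ccl3 and Ccl4 state Cybb had 185 CPM against 31.5 CPM in other cells of aged CA, a ratio of 5.86 (5.42 to 6.34). It had 90.9 against 42.4 CPM in young CA, a ratio of 2.14 (1.79 to 2.55), and 56.7 against 10.3 CPM in aged sham, a ratio of 5.49 (3.55 to 8.16). In this state 2.87% of measured genes were at 2-fold or more in aged CA and 2.50% in young CA, against 4.82% in aged sham. The interferon state and the Ccl3 and Ccl4 state shared cells. In aged CA interferon-state cells held 1623 Cybb UMIs, more than the 1275 outside the Ccl3 and Ccl4 state. The Cybb ratios of these states are therefore not separate results.

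Sod2 followed these states more in aged CA than in young CA. In aged CA it had 331 CPM in the interferon state and 105 CPM outside it, a ratio of 3.16 (3.01 to 3.32), and 415 CPM in the Ccl3 and Ccl4 state and 101 CPM outside it, a ratio of 4.10 (3.91 to 4.31). In young CA it had 54.7 CPM in the interferon state and 49.5 CPM outside it, a ratio of 1.10 (1.01 to 1.20), and 84.7 and 49.6 CPM for the Ccl3 and Ccl4 state, a ratio of 1.71 (1.41 to 2.04). The 2 libraries thus differed in the Sod2 level of state cells, and this difference has no replicate check. Outside both states Sod2 stood at 81.2 CPM in aged CA and 49.1 CPM in young CA, against 29.8 CPM in aged sham and 27.7 CPM in young sham, and the aged ratio was 2.73 in place of 4.72. Cybb outside both states stood at 19.8 CPM in aged CA and 35.6 CPM in young CA, against 8.57 CPM in aged sham and 2.97 CPM in young sham. The aged ratio of Cybb was then 2.31, the young ratio 12, and the ratio of aged CA to young CA 0.557 in place of 1.24, on the other side of 1.

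Among the states Txn1 was highest in cycling cells. In young CA, the one library with at least 20 such cells, it had 326 CPM in cycling cells and 108 CPM in the others, a ratio of 3.03 (2.86 to 3.20). Sod1 and Prdx1 were also higher there, at ratios of 1.91 (1.71 to 2.11) and 1.88 (1.79 to 1.97), and Ncf1 was lower, at 0.642 (0.603 to 0.682). In this state 8.13% of measured genes were at 2-fold or more, and its cells had a median of 18772 UMIs against 9309 in the others. In the Spp1 and Lpl state of young CA, where 2.06% of measured genes were at 2-fold or more, Cybb was at a ratio of 2.30 (2.01 to 2.62), Sod2 at a ratio of 2.01 (1.76 to 2.29), Prdx1 at 1.95 (1.83 to 2.07), Txn1 at 1.78 (1.62 to 1.94) and Cyba at 1.51 (1.46 to 1.56). The 25 cells of this state in aged CA had 349 CPM of Cybb against 51.0 CPM in the others, and 179 CPM of Ncf1 against 299 CPM, where 4.22% of genes were at 2-fold or more. Of the Nos2 UMIs in aged CA, 10 were in interferon-state cells and 45 in the others, levels of 1.13 and 1.17 CPM with a ratio of 0.969 (0.435 to 1.95).

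**Figure D2:**
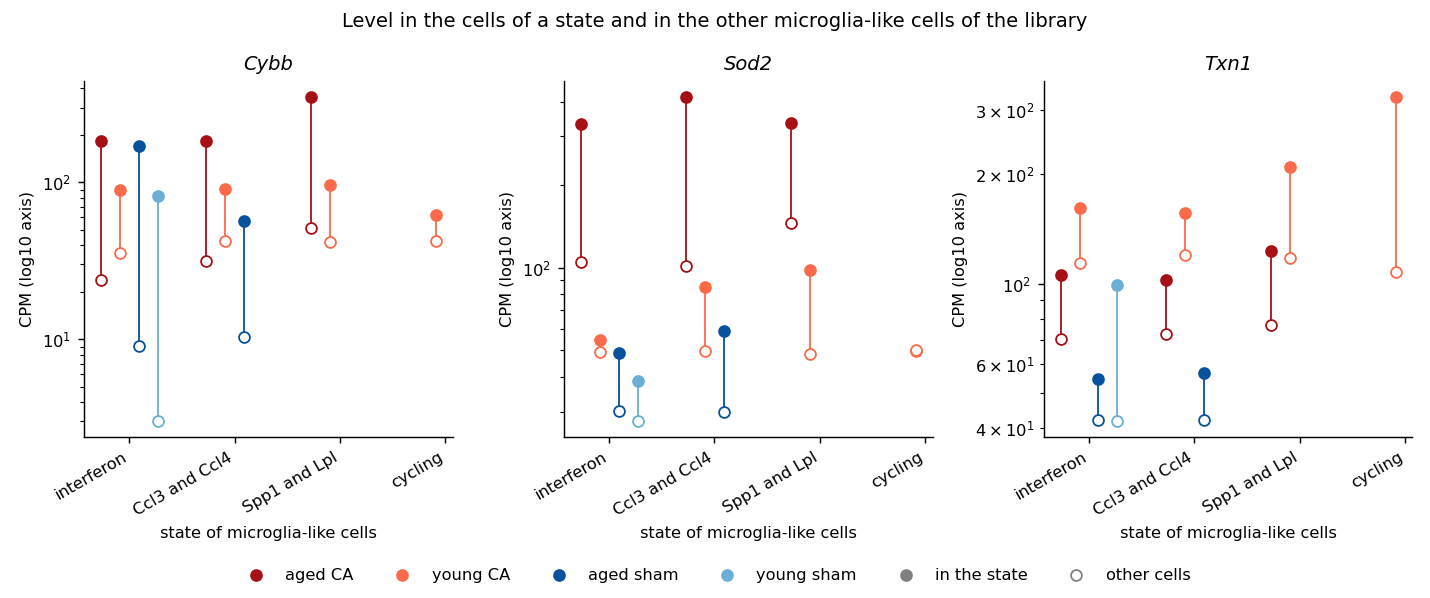
Level of Cybb, Sod2 and Txn1 (y axis, CPM on a log10 scale) in the cells of each state (filled) and in the other microglia-like cells of the same library (open), for states of at least 20 cells (x axis). Sod2 in the Ccl3 and Ccl4 state had 415 CPM in aged CA and 84.7 CPM in young CA, and Txn1 had 326 CPM in cycling cells of young CA.

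Cybb was higher in BAM-like, monocyte-like, neutrophil-like and B-like cells than in microglia-like cells of the same library, wherever both had a level. In BAM-like cells (border-associated macrophages) it stood at 487 CPM in aged CA and 646 CPM in young CA, against 543 CPM in aged sham and 451 CPM in young sham, so that CA and sham overlapped. These levels were 9.05 and 14.9 times those of microglia-like cells in aged CA and young CA, and 45.3 and 128 times in aged sham and young sham. Monocyte-like cells had 496 CPM in aged CA and 820 CPM in young CA, and neutrophil-like cells had 470 CPM in aged CA and 1112 CPM in young CA against 1476 CPM in aged sham. B-like cells had 351 CPM in aged CA against 153 CPM in aged sham and 170 CPM in young sham. T-like cells had 2.91 to 32.6 CPM and neuron-like cells 0 to 5.89 CPM. The 36 Cybb UMIs of aged sham T-like cells came from 4 of 165 cells. Classes under 20 cells in a library were given no level. This left out monocyte-like cells of both sham libraries (19 and 10 cells) and neutrophil-like cells of young sham (16 cells). It also left out B-like cells of young CA (18 cells), among others.

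In monocyte-like cells, 57 in aged CA and 251 in young CA, the CA libraries differed as in microglia-like cells for Sod2. It had 433 CPM in aged CA against 148 CPM in young CA, a ratio of 2.93 (2.63 to 3.26). Prdx1 had 452 CPM in aged CA against 1003 CPM in young CA, a ratio of 0.450 (0.415 to 0.488), and Cybb was at 0.605 (0.559 to 0.655) and Ncf1 at 0.658 (0.572 to 0.756). Txn1 had 760 CPM in aged CA against 678 CPM in young CA, a ratio of 1.12 (1.05 to 1.20), and Cyba, Ncf4 and Sod1 had intervals that hold 1. Of 8 measured members 1 was at 2-fold or more and 1 at 0.5 or less, where 5.88% and 10.4% of 7778 genes were. Nos2 had 9 UMIs in 4 cells of aged CA and 4 UMIs in 3 cells of young CA. Gpnmb and Arg1 were among the 10 leading genes of this class.

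In neutrophil-like cells Sod2 was far higher in aged CA than in the other libraries with enough cells. Sod2 had 228 UMIs (199 CPM) in 34 of 75 cells of aged CA, against 4 UMIs (11.4 CPM) in 4 of 53 cells of aged sham, a ratio of 17.5 (6.73 to 64.6). In young CA no Sod2 UMI was seen in 25 cells, so that aged CA was at least 16-fold higher with 3 UMIs taken as the floor, and the exact interval of the ratio begins at 12.9. In that comparison 19.2% of 5756 genes were at 2-fold or more. Nos2 had 18 UMIs in 9 of the 75 cells of aged CA, and 0 UMIs in the 53 cells of aged sham, at least 1.84-fold higher with the same floor. The exact interval of this ratio begins at 1.35, and Nos2 was too low to count as measured. Cybb was lower in aged CA than in aged sham, at 0.319 (0.282 to 0.360), and so was Ncf1, with 452 CPM against 799 CPM, a ratio of 0.566 (0.488 to 0.656). Of 7 measured members 1 was at 2-fold or more and 1 at 0.5 or less, where 15% and 8.94% of 6054 genes were, a larger background than in microglia-like cells. Depth moved with these values, with a median of 14428 UMIs per neutrophil-like cell in aged CA against 2689 UMIs in aged sham, and its part was not tested. The cluster named neutrophil held 89 cells of aged CA and 318 of aged sham, and 75 and 50 of these passed the neutrophil gate. Most aged sham cells of that cluster are thus outside these values, and the part of this was not tested. At 2000 UMIs per cell a Sod2 UMI was seen in 17 of 74 cells of aged CA and 0 of 28 cells of aged sham, with an upper 95% limit of 12.3%.

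In T-like cells Txn1 ran the other way. Txn1 had 150 CPM in aged CA against 312 CPM in aged sham, a ratio of 0.482 (0.399 to 0.579), and 241 CPM in young CA against 495 CPM in young sham, a ratio of 0.487 (0.361 to 0.649). Cyba had 259 CPM in aged CA against 507 CPM in aged sham, a ratio of 0.511 (0.443 to 0.589), but 470 CPM in young CA against 450 CPM in young sham. In aged CA against aged sham 3 of 8 measured members were at 0.5 or less (Cybb, Ncf4 and Txn1), where 8.01% of 8517 genes were, and 0 at 2-fold or more, where 6.89% were. In young CA against young sham 1 of 6 was (Txn1), where 10.3% of 5659 genes were, and 0 were at 2-fold or more, where 6.73% were. The cluster named T cell held 134 cells of aged CA and 402 of aged sham. Of these, 112 and 163 passed the T-like gate, and the part of the others was not tested. In B-like cells of aged CA against aged sham 1 member, Cybb, was at 2-fold or more, with a ratio of 2.29 (1.67 to 3.17), and 3 were at 0.5 or less, Ncf4 at 0.199 (0.0752 to 0.449), Sod1 at 0.406 (0.176 to 0.862) and Prdx1 at 0.455 (0.288 to 0.703). There 6.67% of 5371 genes were at 2-fold or more and 19.7% at 0.5 or less. In BAM-like cells 0 of 8 members were at 2-fold or more in either CA comparison, where 12.4% of 5512 genes in aged and 4.87% of 6668 genes in young were. Ncf4 was at 0.5 or less in aged, with 11 UMIs in aged CA against 12 UMIs in aged sham and an interval that holds 1, where 11.9% of genes were, and in young 0 of 8 were, where 5.38% of genes were. Prdx1 was lower in both, at 0.688 (0.510 to 0.932) in aged and 0.680 (0.546 to 0.845) in young, opposite to microglia-like cells. Sod2 in BAM-like cells had 126 CPM in aged CA and 67.7 CPM in young CA, against 63.9 CPM in aged sham and 35.3 CPM in young sham. Its aged ratio divided by its young ratio was 1.02 (0.451 to 2.33), on 14 to 60 UMIs a library, against 2.62 in microglia-like cells. The larger aged ratio of Sod2 was thus not seen in the gated cells of this class. The cluster named border-associated macrophage held 231 cells of aged CA and 260 of aged sham. Of these, 56 and 22 passed the BAM-like gate, and the part of the others was not tested. Neuron-like cells had 105 CPM of Sod2 in aged CA and 95.4 CPM in young CA, against 66.9 CPM in aged sham and 57.6 CPM in young sham, ratios of 1.57 (1.36 to 1.83) and 1.66 (1.37 to 2.0).

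**Figure D3:**
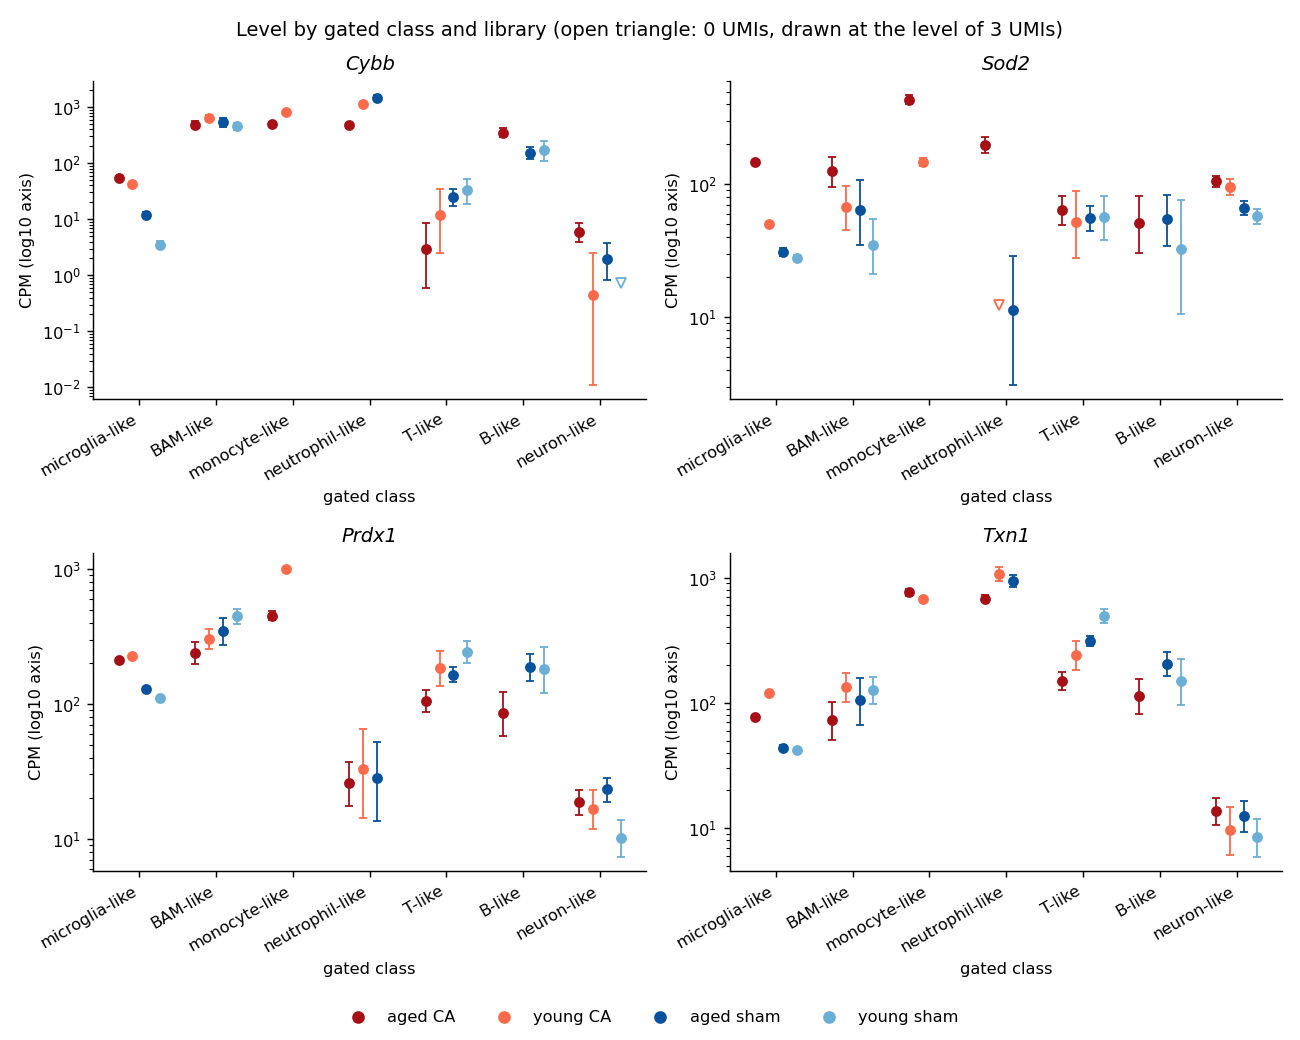
Level of Cybb, Sod2, Prdx1 and Txn1 (y axis, CPM on a log10 scale) by gated class (x axis) and library (colour), with 95% counting intervals. An open triangle marks 0 UMIs and is drawn at the level of 3 UMIs, as for Sod2 in neutrophil-like cells of young CA, beside 199 CPM in aged CA and 11.4 CPM in aged sham.

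The rest of the pathway was followed in microglia-like cells with a list of 63 genes. The list was chosen with earlier results of these data known, so its counts beside those of all genes are a description. In aged CA against aged sham 11 of 39 measured genes were at 2-fold or more and 0 at 0.5 or less, and in young CA against young sham 10 of 37 and 0 of 37. All measured genes gave 6.19% in aged and 5.40% in young at 2-fold or more, and 7.67% and 2.40% at 0.5 or less. The median log2 ratio of the list was 0.31 in aged and 0.43 in young. Of the oxidase partners, 0 of 7 in aged and 0 of 6 in young reached 2-fold, with median log2 ratios of -0.15 and -0.14. The small GTPase gene Rac1 had ratios of 0.902 and 0.992 in aged and young. Rac2, the leukocyte form of this GTPase, was higher, at 1.54 and 1.92. Nrros, whose product limits the oxidase by promoting the breakdown of its flavocytochrome in mouse, had 130 CPM in aged CA against 249 CPM in aged sham and 167 CPM in young CA against 218 CPM in young sham, ratios of 0.520 and 0.764. Cybc1, a chaperone of the flavocytochrome, was at 0.621 and 0.834. The oxidase genes were thus unequal, with Cybb, Cyba, Ncf1 and Rac2 above 1 and Nrros and Cybc1 below it in both ages.

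Several peroxide removal and iron storage genes were higher after CA. Of the superoxide and peroxide list 2 of 8 measured genes in aged and 4 of 8 in young were at 2-fold or more. Of all measured genes 6.19% in aged and 5.40% in young were. Those of the list were Prdx5 at 2.04 and 2.25, Prdx6 at 2.45 and 2.18, and, in young, Gpx1 at 2.58 and Prdx4 at 2.28. Gpx1 and Prdx4 had aged ratios of 1.70 and 1.68. Gpx4, the lipid peroxide reductase, was at 1.20 and 1.61, and Cat, catalase, was lower, at 0.787 and 0.752. Beside the same 6.19% and 5.40%, the thioredoxin and glutathione list had 5 of 14 in aged and 2 of 13 in young at 2-fold. They were Msrb1, a methionine sulfoxide reductase, at 4.10 and 4.01, Glrx, glutaredoxin, at 3.05 and 2.81, and, in aged, Txnrd1 at 2.42, Glrx5 at 2.13 and the cystine transporter Slc7a11. Slc7a11 had 36.8 CPM in aged CA and 5.64 CPM in young CA, against 7.25 CPM in aged sham and 7.29 CPM in young sham, so that aged CA stood alone. Txnip, which binds and inhibits thioredoxin, was lower, at 0.643 and 0.620, and Sesn1 was at 0.8 and 0.838.

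Of the NRF2 list 3 of 9 measured genes were at 2-fold or more in both ages. Of all measured genes 6.19% in aged and 5.40% in young were. Hmox1, haem oxygenase, had 56.1 CPM in aged CA and 26.8 CPM in young CA, against 17.8 CPM in aged sham and 11.7 CPM in young sham, ratios of 3.16 and 2.30. The ferritin genes Fth1 and Ftl1 were at 3.25 and 2.05 in aged and at 3.45 and 2.65 in young. Nfe2l2, which encodes NRF2, was at 0.915 and 1.15, and Nqo1, a textbook NRF2 target, had under 1 CPM in all 4 libraries. Of the nitric oxide list 1 of 6 genes was measured, Gch1, the first enzyme of tetrahydrobiopterin synthesis. It had 36.0 CPM in aged CA and 18.7 CPM in young CA, against 9.39 CPM in aged sham and 7.60 CPM in young sham, ratios of 3.83 and 2.47. Arg2, a mitochondrial arginase that competes for the substrate of Nos2, stood at 1.35 CPM in aged CA and 1.25 CPM in young CA, against 1.59 CPM in aged sham and 2.0 CPM in young sham.

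**Figure D4:**
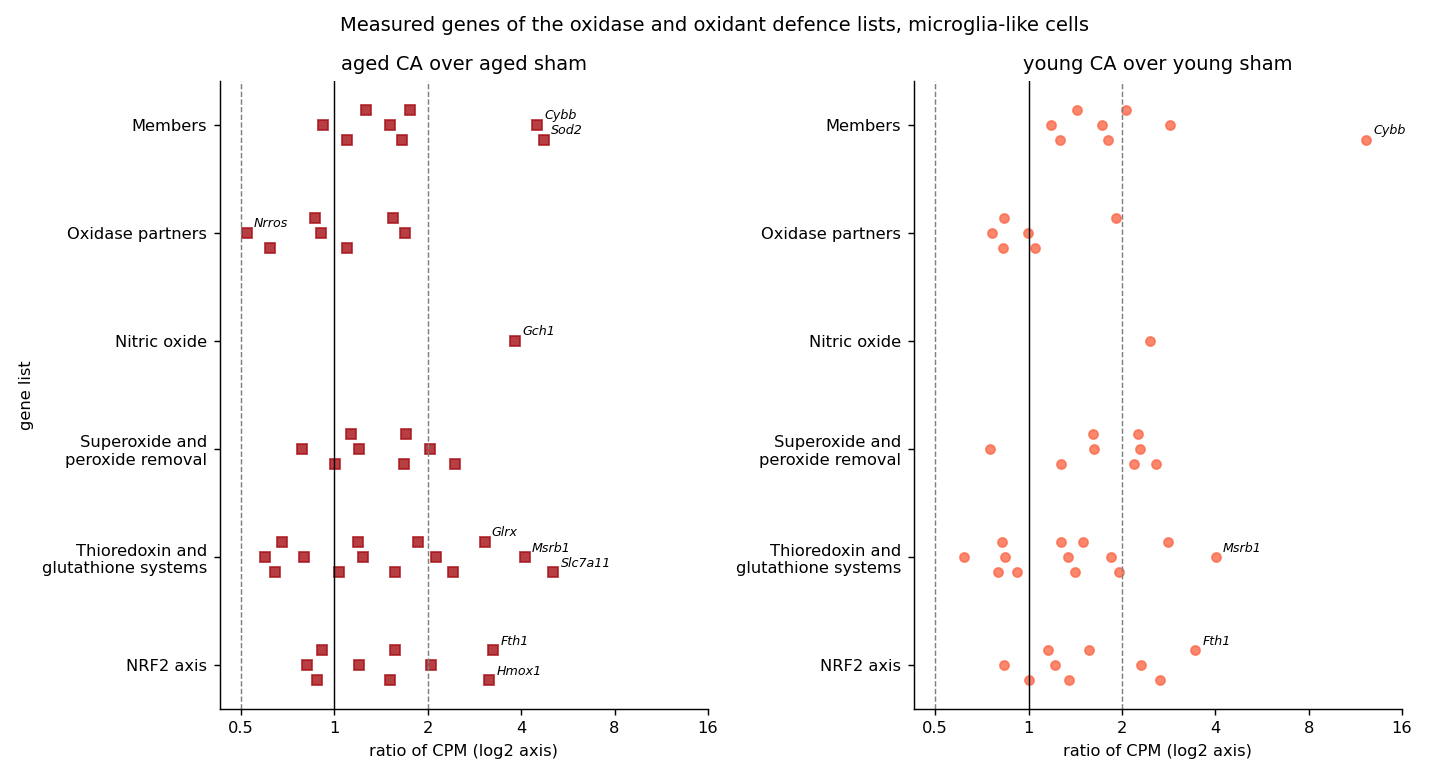
Ratio of CPM, CA over sham (x axis, log2 scale), of each measured gene of the members and the 5 other lists (y axis) in microglia-like cells, aged on the left and young on the right. Points at 3-fold or more, and at 0.55 or less, carry names. No point lies at 0.5 or less in either age, where 7.67% of all measured genes in aged and 2.40% in young were.

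Across the 27 sums of class and library with at least 20 cells, the genes most like each member were found by Pearson correlation of log2(CPM + 1) over 10256 genes. These sums share libraries and depth, and the values are a description. Genes close to Ncf1 were Spi1, the gene of the myeloid factor PU.1, at 0.963 and Itgam at 0.948. Cybb was followed less closely, by Rgs18 at 0.869, AB124611 at 0.867 and Prdx5 at 0.865. The nearest genes were Gng5 at 0.972, Gnai2 and Gabarap for Cyba, Vasp at 0.952, Hcls1 and Pgam1 for Ncf4, and Akr1a1 at 0.943, M6pr and Ssr2 for Prdx1. For Txn1 they were Mrpl33 at 0.966, Myl6 and Actg1, and for Sod1 they were Mrps16 at 0.902, Banf1 and Eif3d. For Sod2 they were Pcgf5 at 0.808, Tmem242 and Nln. For Nos2 they were Cxcl3 at 0.945, Csta2 and Stfa3, but its mean was 0.925 CPM.

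The members lie apart in the genome, on GRCm38 with the GENCODE M21 gene models. Cybb lies on chromosome X (9435252 to 9487771, minus strand), Sod2 on chromosome 17 (13006846 to 13040063, plus strand), and Prdx1 (116685544 to 116700822, plus strand) and Txn1 (57943373 to 57956411, minus strand) on chromosome 4. Cyba (Gm20388), Ncf1 (Gtf2ird2) and Sod1 (Scaf4) overlap a gene on the opposite strand. Gm20388 was not among the genes counted. Whether the counting used strand was not given in the sources used here. Whether reads of these 3 members and of their neighbours were kept apart was not tested.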

How the data were processed

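CD45+ brain cells of 4 libraries, 1 per group, were measured by droplet-based single-cell RNA sequencing. The authors deposited raw UMI counts for each barcode; the submitters' processing notes name Cell Ranger 7.1.0 and the mm10 build, without further settings. Barcodes with under 500 UMIs, under 200 genes or over 10% mitochondrial UMIs were left out, as were marked doublets (0.8% per 1000 barcodes, by score rank, because the automatic threshold marked 0). Cells were gated with at least 3 markers of a class, thresholds being chosen after seeing the data, since a simpler gate left other leukocytes among microglia-like cells. Counts of all cells of a class in a library were added up and scaled to CPM; levels have exact Poisson and shares exact binomial (Clopper-Pearson) 95% intervals, and ratios an exact conditional interval. A gene was measured at a mean of 10 CPM and 20 UMIs, and called at 2-fold. The scripts were tested on simulated data. The 9 members and all lists were chosen with earlier results of these data known. The text names all members, genes of the wider list at 2-fold in a CA comparison, the 2 of highest mean CPM in each list and the 3 genes most like each member, except for an item that is not reported here. Rac2, Nrros, Cybc1, Gpx4, Cat, Nfe2l2, Nqo1 and Nox1 were named after their values were seen. Python 3.11.15, scanpy 1.11.5, scipy 1.17.1, edgeR 4.0.16 and DESeq2 1.42.0 were used, the last 2 for alternative scaling factors only.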

Additional observations from a re-analysis of the deposited data

Results flagged for a closer look

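Ncf4 in microglia-like cells lay on opposite sides of 1 at the 2 ages: the CA to sham ratio was 0.918 in aged and 1.18 in young mice. The difference between the ages was not tested, as there was 1 library a group. Cyba in neuron-like cells also lay on opposite sides, at 0.438 in aged and 1.87 in young, and this difference was not tested either. Its levels were 28.8 CPM in aged CA and 28.1 CPM in young CA, against 65.9 CPM in aged sham and 15.1 CPM in young sham. The microglial marker list summed to 326 CPM in neuron-like cells of aged CA and 439 CPM of young CA, against 1331 CPM of aged sham and 444 CPM of young sham, and its part in the Cyba values was not tested.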

How the results depend on the processing

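With 20 alternative settings (scaling, filters, gates, doublets, subsets of cells), 76 of 80 recomputed counts of members at 2-fold stayed within 1.5 times the main count and 4 moved. In aged CA against young CA the count of 1 became 0 outside the interferon and Ccl3 and Ccl4 states, and 2 with no filter on low values, which added Nos2. In aged sham against young sham the count of 0 became 1 with a mean over cells and 1 with no filter, Cybb in each. Of 715 recomputed ratios of single members in microglia-like cells, 134 moved beyond their counting interval and 5 came to the other side of 1, none of them at 2-fold in the main values: Sod1 in aged CA against aged sham and Txn1 between the shams in 2 settings each, and Cybb between the CA libraries in 1. Of 1260 recomputed levels 69 moved, and of 36 shares 32 moved with thinning to 1000 UMIs. Thinning further lowers such shares by itself, so the last count is no check of the differences between libraries. The aged ratio of CA to sham ranged over 2.31 to 6.80 for Cybb and 2.73 to 5.02 for Sod2, and the young ratio over 8.23 to 16.6 for Cybb, 2.24 to 3.17 for Txn1 and 1.82 to 2.30 for Prdx1. Prdx1 fell under 2 in 4 settings, and TMM scaling put Sod2 at 2.0 in young. TMM moved the median log2 ratio of all genes to 0.13 in aged and 0.10 in young, against 0.04 and -0.06. Leaving out a replicate was not possible with 1 library a group. No paired analysis was possible because the groups have 1 library each and no test was made. Shallow aged sham cells limit what can be seen there.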

Other observations

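Nox1, a catalytic oxidase subunit best known from colon epithelium, had 18.2 CPM in microglia-like cells of aged CA and 6.55 CPM of young CA, against 10.8 CPM of aged sham and 11.1 CPM of young sham. The CA libraries thus lay on either side of the sham libraries, with an aged CA to young CA ratio of 2.78 (2.49 to 3.1). Cells that passed no gate had 143 CPM of Cybb in aged CA and 182 CPM in young CA, against 162 CPM in aged sham and 186 CPM in young sham. Their Sod2 had the order of microglia-like cells, with 179 CPM in aged CA and 68.6 CPM in young CA, against 54.3 CPM in aged sham and 48.0 CPM in young sham. In oligodendrocyte-like cells Sod2 had 19 UMIs (86.0 CPM) in aged CA against 5 UMIs (15.8 CPM) in aged sham, a ratio of 5.45 (1.97 to 18.7), where 20.6% of measured genes were at 2-fold or more.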
